A study of Mus musculus with 6 samples.

Results

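The chemokine ligands Pf4, Cxcl1, Cxcl12, Cxcl14, Cx3cl1 and Ccl2, the atypical receptors Ackr3 and Ackr4 and the receptor Cxcr4 were examined in mouse neural stem cells (NSC) and in NSC labelled as overexpressing the Polycomb protein Bmi1 (NSC Bmi1Over). They are 9 of the 50686 genes in the count files, a named list selected on the read counts of Pf4 and Ackr4, which were higher in the libraries labelled NSC Bmi1Over. That choice used the comparison of RNA between the groups, so the differences in RNA are given here as a description of these libraries, without a test, and the counts over the members support nothing by themselves. Of the 9 members, 8 passed the filter on low counts and Cxcl1 did not.

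RNASeq was available for 2 cultures of each group, and H3K27me3 ChIPSeq for 1 library of each. NSC came from wild type embryos and NSC Bmi1Over from STOPFloxBmi1;NestinCre embryos, in which Cre under the control of Nestin switches on the Bmi1 transgene in cells of the neural lineage. Both came from the cerebral hemispheres of embryos at E16.5 and were grown with EGF and FGF. The study describes the 2 cultures of a group as biologically independent. No other treatment was given for these cultures, and whether the cultures used for RNASeq grew as spheres or as a monolayer is not given in the sources used here.

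Chemokines are small secreted proteins that bind G protein-coupled receptors and guide the movement of cells along their gradients. The receptor Cxcr4 and its ligand Cxcl12 direct migrating precursors and interneurons in the developing brain, while the atypical receptors bind chemokines without coupling to G proteins and remove them from the surroundings of the cell. In the brain Cx3cl1 is a neuronal product whose receptor is found on microglia, and Pf4 is best known as a protein of platelet granules.

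The start regions of 3 ligands are shown because they stand for both kinds of result that follow. Pf4 had the largest relative difference in RNA among the members and no H3K27me3 peak near it, while Cxcl12 and Cxcl14 were the members with a peak at the promoter. Each run holds 250 bases before to 50 bases after the start of the gene in RefSeq (GRCm38.p6), 5′ to 3′ on the strand of the gene, with CpG dinucleotides in capitals. The windows are chr5:90772185-90772484 on the plus strand for Pf4, chr6:117168285-117168584 on the plus strand for Cxcl12 and chr13:56296502-56296801 on the minus strand for Cxcl14.
Pf4: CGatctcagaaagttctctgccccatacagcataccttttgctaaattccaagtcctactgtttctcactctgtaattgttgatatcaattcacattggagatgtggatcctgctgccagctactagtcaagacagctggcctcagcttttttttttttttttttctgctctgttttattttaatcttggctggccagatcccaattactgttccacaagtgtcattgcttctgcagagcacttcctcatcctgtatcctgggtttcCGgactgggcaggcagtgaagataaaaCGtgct
Cxcl12: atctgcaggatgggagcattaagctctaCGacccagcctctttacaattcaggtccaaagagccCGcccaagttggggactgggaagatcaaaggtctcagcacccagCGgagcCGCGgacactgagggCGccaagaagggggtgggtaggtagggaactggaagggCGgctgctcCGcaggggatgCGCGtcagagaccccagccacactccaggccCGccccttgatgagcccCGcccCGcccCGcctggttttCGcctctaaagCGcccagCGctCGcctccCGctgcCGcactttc
Cxcl14: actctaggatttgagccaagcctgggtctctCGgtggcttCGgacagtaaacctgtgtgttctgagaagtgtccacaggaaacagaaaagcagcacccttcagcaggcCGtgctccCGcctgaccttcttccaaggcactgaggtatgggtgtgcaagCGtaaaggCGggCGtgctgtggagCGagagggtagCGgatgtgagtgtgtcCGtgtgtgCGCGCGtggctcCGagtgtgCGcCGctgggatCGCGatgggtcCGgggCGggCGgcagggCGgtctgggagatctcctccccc
The Pf4 window held 3 CpG, against 20 for Cxcl12 and 22 for Cxcl14, while the median over 32851 RefSeq promoters of the same length was 7, with quartiles of 3 and 20. Of the other members with a RefSeq window, Ackr3 held 8 CpG, Ackr4 10, Cxcl1 10, Cx3cl1 19 and Cxcr4 20. The RefSeq window of Ackr4, chr9:104126594-104126893, lies inside the first exon that GENCODE gives this gene, in sequence shared with Acad11, so its values describe an exon as much as a promoter. The TATA box TATAAA and the GATA motif AGATAA were searched on both strands, which do not overlap each other. AGATAA was found in the window of Pf4 alone among these 8 members, at base 37 after the start, and in 11.2% of all promoters, and no match of it overlapped one of TATAAA. Counted from the start, TATAAA began at base −30 for Cxcr4, which also held it on the other strand at −32, −8 for Ackr3, −6 for Cx3cl1 and −185 for Ackr4, and it was present in 13.6% of all promoters. A match of letters is a description of the window and not of a bound site.

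The 4 libraries held between 18112100 and 61353076 reads on genes, and replicate 2 of NSC Bmi1Over was the deepest. Levels are given as CPM, the usual measure of a gene's reads relative to all reads on genes of its library, after TMM scaling, and per kb of exon where genes are compared with each other. Bmi1 itself, the targeted gene, stood at 133.2 and 123.4 CPM in NSC and at 118.5 and 112.5 CPM in the libraries labelled NSC Bmi1Over, a log2 fold change of −0.15 (SE 0.12) with a Benjamini-Hochberg adjusted p of 0.463 by edgeR's quasi-likelihood test. The reads on Bmi1 were thus not higher in the libraries labelled as overexpressing it, whether reads of the transgene would be counted there is not given in the sources used here, and each direction below rests on the labels alone. The 10 neural stem cell markers, of which Fabp7, Vim and Nes stood highest per kb of exon, were all tested and summed to between 4132 and 4815 CPM in each library. None of them passed edgeR's test or DESeq2's, which called 2.15% of 15521 and 11.2% of 13414 genes with an adjusted p. An unadjusted p under 0.05 by edgeR was found for 2 of the 10 markers and for 24.2% of all tested genes. These 2, named after their values were seen, were Sox2 (log2 fold change −0.42, SE 0.14) and Hes5 (−0.74, SE 0.26). The log2 fold change was above 0 for 3 of the 10 markers and for 48.6% of all tested genes. Its median over the 10 markers was −0.21.

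Of the 8 tested members, 6 had higher levels in both libraries labelled NSC Bmi1Over than in either NSC library, namely Pf4, Cxcl12, Cx3cl1, Ccl2, Ackr4 and Cxcr4. Over all 15521 tested genes the groups did not overlap for 59.0%, and 29.0% lay higher in both libraries labelled NSC Bmi1Over. Levels of Cxcl14 and Ackr3 overlapped between the groups. The log2 fold change was above 0 for 7 of the 8 members and for 48.6% of all tested genes, and its median was 1.23 over the 8 members and −0.01 over all tested genes. In these bulk cultures more cells of a type and more RNA per cell cannot be told apart.

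**Figure D1:**
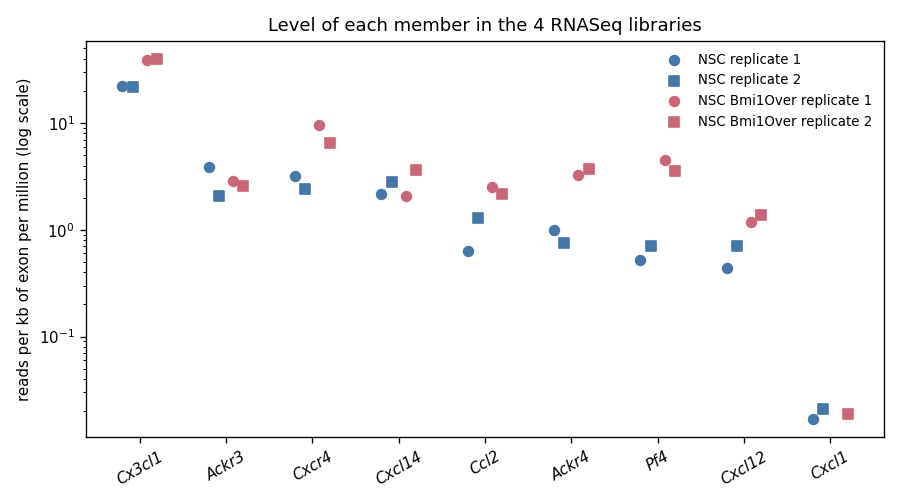
Level of the 9 members in each of the 4 RNASeq libraries, as CPM per kb of exon on a log scale, with NSC in blue and the libraries labelled NSC Bmi1Over in red. Cx3cl1 stood highest in both groups, at 22.0 ± 0.258 and 39.5 ± 0.770 (mean ± SD, n = 2), and Cxcl1 lowest, with 0 reads in NSC Bmi1Over replicate 1, which is not drawn.

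Among the ligands, Pf4, or Cxcl4 (ENSMUSG00000029373, GRCm38 chr5:90772435-90773383), a chemokine stored in platelet granules that binds heparin, had the largest relative difference. It was covered by 12 and 13 reads in NSC and by 57 and 146 reads in the libraries labelled NSC Bmi1Over, or 0.380, 0.514, 3.25 and 2.55 CPM. The NSC libraries were the low ones and the groups did not overlap. Exact 95% Poisson intervals, given to show the precision of so few reads, ran from 6.20 to 20.96 and 6.92 to 22.23 reads in NSC. In NSC Bmi1Over they ran from 43.17 to 73.85 and 123.3 to 171.7 reads. These intervals cover counting error only and leave out the spread between cultures. Since Pf4 was chosen on these counts, they are no test of the groups. Means were 0.447 ± 0.0947 and 2.90 ± 0.495 CPM (SD, n = 2), a log2 fold change of 2.68 (SE 0.34) or 6.42-fold. It lay between 2.47 and 2.90 with each culture left out in turn.

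Pf4 is a gene of a chemokine cluster on chromosome 5, and the 6 other chemokine genes within 500 kb of it were nearly silent. Cxcl1, Cxcl2, Cxcl3, Cxcl15 and Ppbp, a platelet chemokine that neighbours Pf4, had at most 2 reads in any library. Cxcl5 had 9 reads in NSC Bmi1Over replicate 2 and 0 in the other 3 libraries. Cxcl1 (ENSMUSG00000029380, chr5:90891241-90893115), a ligand of Cxcr2 that attracts neutrophils, was at 1, 1, 0 and 2 reads in NSC replicates 1 and 2 and NSC Bmi1Over replicates 1 and 2. All 4 values are at or under the floor of 3 reads, which lay between 0.0525 and 0.171 CPM, so no fold is given and a difference was not detectable at this depth.

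Since Pf4 is a product of megakaryocytes and is also made by some macrophages, markers of these cells are given beside it. The 12 megakaryocyte and platelet markers summed to 8.74 and 9.88 CPM in NSC and to 11.1 and 14.8 CPM in NSC Bmi1Over. Of them, 7 were under 1 CPM in every library, and Tubb1, Treml1 and Clec1b were at 0 reads in all 4. The highest per kb of exon were Itga2b, at 2.25 and 3.40 CPM in NSC and 3.82 and 3.74 CPM in NSC Bmi1Over, Gp1ba, at 1.58 and 1.62 against 1.48 and 1.24 CPM, and Thbs1, which many cell types make, at 2.41 and 2.29 against 2.63 and 4.86 CPM. The groups did not overlap for these 3 genes, as for 59.0% of all tested genes, with Gp1ba lower and the others higher in NSC Bmi1Over. Over the 5 tested platelet markers the median log2 fold change was 0.63, and Gp1bb, named after its values were seen, had the largest, 0.98 (SE 0.40). The 14 macrophage and microglia markers summed to 4.34 and 4.58 CPM in NSC and to 7.31 and 5.59 CPM in NSC Bmi1Over, with 12 under 1 CPM in every library and Itgam, Adgre1, C1qa, C1qb, Lyve1 and Ms4a7 at 0 in all 4. P2ry12, a microglial receptor and the highest of them per kb of exon, was at 1.27 and 1.74 CPM in NSC and at 2.23 and 2.95 CPM in NSC Bmi1Over, without overlap (log2 fold change 0.82, SE 0.30, not called). Cd163 was at 2.98, 2.69, 4.62 and 2.36 CPM, with overlap, and Tyrobp, the next per kb, had 1 read in NSC Bmi1Over replicate 1 and 0 elsewhere. Both sums were higher in the libraries labelled NSC Bmi1Over, and their part in the level of Pf4 was not tested.

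Other marker lists were read in the same way. The 8 endothelial markers summed to 4.88, 6.05, 6.96 and 8.53 CPM in NSC replicates 1 and 2 and NSC Bmi1Over replicates 1 and 2, with Cldn5 at 0 throughout. The highest of them per kb of exon were Tek, at 0.886 and 1.74 CPM in NSC and 2.34 and 2.36 CPM in NSC Bmi1Over (log2 fold change 0.86, SE 0.35), Esam (0.54, SE 0.38) and Kdr (0.57, SE 0.28). All 4 tested endothelial markers had a log2 fold change above 0, with a median of 0.56. The 12 fibroblast and pericyte markers summed to 42.5, 47.7, 32.1 and 57.8 CPM, with Pdgfra, which oligodendrocyte precursors also express, Foxc1 and Acta2 the highest per kb of exon. Of the erythroid markers, Alas2 was at 0.380, 0.356, 0.342 and 0.507 CPM. The sum of the endothelial markers was higher in both libraries labelled NSC Bmi1Over, whereas that of the fibroblast and pericyte markers overlapped between the groups. No gene of the platelet, macrophage, endothelial, fibroblast or erythroid lists passed edgeR's test or DESeq2's. An unadjusted p under 0.05 by edgeR was found for 1 gene of each of the first 3 lists, for 0 of the others and for 24.2% of all tested genes. While 2.15% of all tested genes were called by edgeR's test, 1 of the 6 neuron markers was, Syt1, which was higher, and 1 of the 6 astrocyte markers, Aldh1l1, which was lower. DESeq2 called 1 and 2 genes of these lists, against 11.2% of all genes. Map2, Tubb3 and Snap25 stood highest per kb among the neuron markers not called, and Slc1a3, Slc1a2 and S100b among those of astrocytes, with log2 fold changes from −0.48 for Snap25 to 0.46 for Slc1a3. Of the 8 oligodendrocyte lineage markers, led per kb by Olig1, Olig2 and Cspg4, none was called by edgeR's test, nor had any an unadjusted p under 0.05 or a call by DESeq2. The cultures labelled NSC Bmi1Over differed widely from each other for some of them. Replicates 1 and 2 stood at 0.285 and 4.63 CPM for Sox10, named after its values were seen, and at 16.4 and 44.4 CPM for Pdgfra.

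Cx3cl1, or fractalkine (ENSMUSG00000031778, chr8:94772009-94782427), a membrane-bound ligand that enzymes of the ADAM family release from the surface, was the most abundant member. It stood at 87.2 and 85.7 CPM in NSC and at 153.2 and 157.5 CPM in the libraries labelled NSC Bmi1Over. The 2 cultures of each group lay close to each other and the groups were far apart, at 86.4 ± 1.02 and 155.4 ± 3.02 CPM (SD, n = 2). The log2 fold change was 0.85 (SE 0.12) or 1.80-fold, and it lay between 0.82 and 0.87 with each culture left out, the narrowest such range among the members. Without TMM, by library size only, it was 0.70, while the median over all tested genes was then −0.17. Its receptor Cx3cr1, named here after its values were seen, had 1, 0, 1 and 0 reads in the 4 libraries.

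Cxcl12 (ENSMUSG00000061353, chr6:117168535-117181367), the ligand of Cxcr4 that Ackr3 also binds and removes, was at 3.58 and 5.77 CPM in NSC and at 9.59 and 11.2 CPM in NSC Bmi1Over. Both cultures labelled NSC Bmi1Over were the higher ones. Means were 4.67 ± 1.55 and 10.4 ± 1.11 CPM (SD, n = 2), with a log2 fold change of 1.17 (SE 0.25) or 2.24-fold. NSC replicate 1 was the lower of the 2 controls, and the log2 fold change ranged from 0.85 without it to 1.54 without NSC replicate 2. Its annotated exons cover 8176 bp, and per kb of exon its mean level was the lowest of the ligands but for Cxcl1.

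Ccl2 (ENSMUSG00000035385, chr11:82035571-82037453), a chemokine that attracts monocytes through Ccr2, had 23 and 37 reads in NSC and 50 and 141 in NSC Bmi1Over, or 0.728, 1.46, 2.85 and 2.47 CPM. The groups did not overlap, but the NSC cultures differed from each other by more than the NSC Bmi1Over cultures did, with means of 1.10 ± 0.519 and 2.66 ± 0.275 CPM (SD, n = 2). The log2 fold change of 1.29 (SE 0.36) ranged from 0.85 without NSC replicate 1 to 1.85 without NSC replicate 2. Ccr2, named after its values were seen, had 0, 0, 1 and 0 reads.

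Cxcl14 (ENSMUSG00000021508, chr13:56288643-56296551), a chemokine made by many epithelia and by interneurons, was at 3.93 and 5.10 CPM in NSC and at 3.77 and 6.70 CPM in NSC Bmi1Over. The lowest and the highest value both came from libraries labelled NSC Bmi1Over, so that the groups overlapped. Their log2 fold change, 0.26, was smaller than its SE of 0.30 and turned to −0.26 without NSC Bmi1Over replicate 2.

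**Figure D2:**
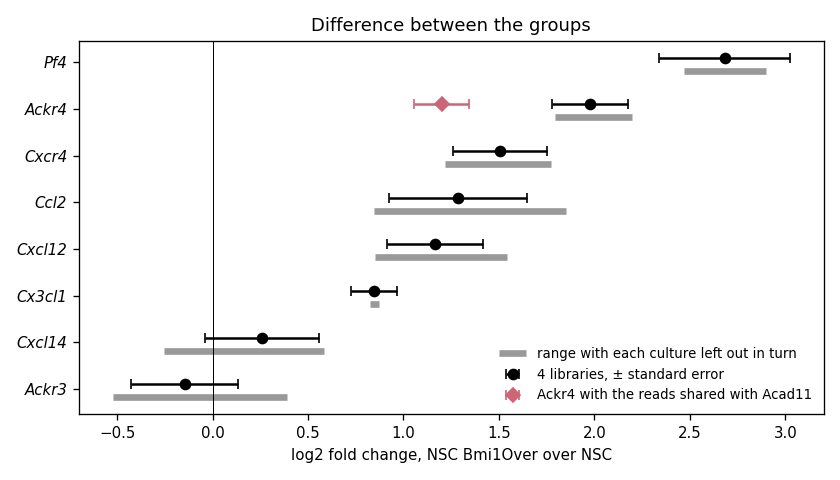
Log2 fold change of the 8 tested members, libraries labelled NSC Bmi1Over over NSC, with its standard error (black) and the range with each culture left out in turn (grey). The ranges of Cxcl14 (−0.26 to 0.58) and Ackr3 (−0.52 to 0.39) cross 0, and the red point gives Ackr4 at 1.20 once the reads it shares with Acad11 are included.

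Of the receptors, Ackr4 (ENSMUSG00000079355, chr9:104084157-104126933), which removes CCL19, CCL21 and CCL25, had 170 and 103 reads in NSC and 306 and 1133 in NSC Bmi1Over, or 5.38, 4.07, 17.5 and 19.8 CPM. Both NSC libraries were low and both libraries labelled NSC Bmi1Over were high, at 4.73 ± 0.927 and 18.6 ± 1.66 CPM (SD, n = 2). The log2 fold change was 1.98 (SE 0.20) or 3.94-fold, between 1.79 and 2.20 with each culture left out. Of its ligands, Ccl25 was at 17.6 and 18.3 CPM in NSC and at 18.3 and 19.0 CPM in NSC Bmi1Over, while Ccl19 and Ccl21a, named after their values were seen, had 0 reads in all 4 libraries. Ccl21a has near-identical copies in the mouse genome, so its count is uncertain.

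Ackr4 lies on the minus strand, and its exons overlap those of Acad11, an acyl-CoA dehydrogenase gene on the plus strand, over 479 bp or 8.9% of its exon sequence. The overlap is in 2 stretches, chr9:104084161-104084287 (127 bp) and chr9:104126582-104126933 (352 bp), the latter within the first exon of Ackr4. The count used here ignores strand and leaves out reads that fall on both genes, and the libraries carry no strand information, so these reads cannot be assigned to either gene. They numbered 186 and 150 in NSC and 122 and 257 in NSC Bmi1Over.

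The shared reads were a large part of the signal at Ackr4 in NSC. They made up 52.2 and 59.3% of the reads on Ackr4 and the overlap together in NSC, and 28.5 and 18.5% in NSC Bmi1Over. On the scale of CPM they were flat by comparison, at 5.89 and 5.93 in NSC and 6.96 and 4.49 in NSC Bmi1Over. Acad11 alone stood at 15.1 and 10.0 CPM in NSC and at 15.3 and 10.6 CPM in NSC Bmi1Over, with a log2 fold change of 0.03 (SE 0.25). With the shared reads added, Ackr4 was at 11.3 and 10.0 CPM in NSC against 24.4 and 24.3 CPM in NSC Bmi1Over, a log2 fold change of 1.20 (SE 0.15). The groups stayed apart both ways, while the size of the difference depended on whether the shared reads were counted.

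**Figure D3:**
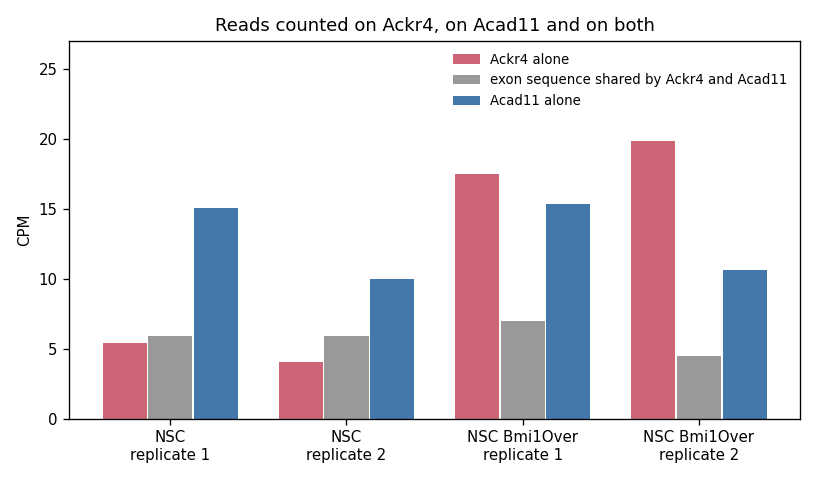
CPM on exon sequence of Ackr4 alone (red), shared by Ackr4 and Acad11 (grey) and of Acad11 alone (blue), as bars for each of the 4 RNASeq libraries. The bar of Ackr4 alone is at 5.38 and 4.07 in NSC and at 17.5 and 19.8 in the libraries labelled NSC Bmi1Over, while the shared reads lie between 4.49 and 6.96 in all 4.

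Ackr3 (ENSMUSG00000044337, chr1:90203980-90216751), the scavenger of Cxcl12, was at 13.0 and 6.92 CPM in NSC and at 9.59 and 8.58 CPM in NSC Bmi1Over. Both NSC Bmi1Over values lay between the 2 NSC values, with means of 9.96 ± 4.31 and 9.09 ± 0.709 CPM (SD, n = 2). This gave a log2 fold change of −0.15 (SE 0.28), and leaving out NSC replicate 1, the highest library, turned it to 0.39. Of the 2 atypical receptors, the groups thus overlapped for Ackr3 and not for Ackr4.

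Cxcr4 (ENSMUSG00000045382, chr1:128588199-128592293), the signalling receptor for Cxcl12, was at 5.76 and 4.35 CPM in NSC and at 17.4 and 11.8 CPM in NSC Bmi1Over. The groups did not overlap, although the 2 cultures labelled NSC Bmi1Over differed from each other more than those of NSC, with means of 5.05 ± 1.00 and 14.6 ± 3.95 CPM (SD, n = 2). Between the groups the log2 fold change was 1.51 (SE 0.25) or 2.84-fold, between 1.22 and 1.77 with each culture left out. Ligand and receptor of the Cxcl12 axis were thus both higher in the libraries labelled NSC Bmi1Over, whereas the groups overlapped for Ackr3.

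Per kb of exon, Cx3cl1 led both groups. In NSC it was followed by Ackr3 (2.98 ± 1.29 CPM per kb, SD, n = 2), Cxcr4 (2.80 ± 0.553), Cxcl14 (2.47 ± 0.454), Ccl2 (0.962 ± 0.456), Ackr4 (0.879 ± 0.172), Pf4 (0.620 ± 0.131), Cxcl12 (0.572 ± 0.190) and Cxcl1 (0.0190 ± 0.00296). Libraries of neighbours in this order overlapped for Ackr3 and Cxcr4, Cxcr4 and Cxcl14, Ccl2 and Ackr4, and Pf4 and Cxcl12. In NSC Bmi1Over the order after Cx3cl1 was Cxcr4 (8.05 ± 2.18), Pf4 (4.03 ± 0.687), Ackr4 (3.46 ± 0.308), Cxcl14 (2.86 ± 1.13), Ackr3 (2.71 ± 0.212), Ccl2 (2.34 ± 0.241), Cxcl12 (1.27 ± 0.135) and Cxcl1 (0.00933 ± 0.0132), with overlap between Pf4 and Ackr4, Ackr4 and Cxcl14, and Cxcl14 and Ackr3. Members further apart in the order also overlapped. In NSC these were Ackr3 and Cxcl14, Ccl2 and Pf4, and Ccl2 and Cxcl12, and in NSC Bmi1Over Pf4 and Cxcl14, and Cxcl14 and Ccl2. These levels of Ackr4 leave out the reads shared with Acad11, and with them it stood at 1.98 ± 0.167 CPM per kb in NSC, above Ccl2, and at 4.53 ± 0.0163 in NSC Bmi1Over, above the mean of Pf4.

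For Pf4, Ackr4 and Cxcr4 the tested genes with the most similar profile over the 4 libraries were found by the root mean square difference of centred log2 CPM. With 4 libraries in 2 groups this mostly finds genes with the same difference between the groups. For Pf4 they were Col28a1 (0.143 on the log2 scale), a collagen gene at 22.2 and 34.1 CPM in NSC and 148.1 and 144.2 CPM in NSC Bmi1Over, Hs3st1 (0.215), a heparan sulfate sulfotransferase gene, and Folr1 (0.225), a folate receptor gene. For Ackr4 they were Scara5 (0.0974), a scavenger receptor gene, Slc2a10 (0.157), a sugar transporter gene, and Kcnt1 (0.164), a potassium channel gene. For Cxcr4 they were B230323A14Rik (0.0485), Vwa5b1 (0.158) and Glp1r (0.159), the receptor of glucagon-like peptide.

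The other genes of the chemokine system were read from lists. Unlike for the members, which were chosen on this contrast, the outcome of the test is given for them. With edgeR's quasi-likelihood test, 2.15% of all tested genes had a Benjamini-Hochberg adjusted p under 0.05 and were called, 2.03% with higher and 0.122% with lower levels in NSC Bmi1Over. Of 32 other chemokine ligands 3 were tested and 1 was called, and their median log2 fold change was 0.06. The called ligand was Cxcl10, an interferon-induced ligand of Cxcr3, at 0.475 and 0.790 CPM in NSC and at 2.85 and 2.01 CPM in NSC Bmi1Over. It was higher in both libraries labelled NSC Bmi1Over, with a log2 fold change of 1.92 (SE 0.37) or 3.79-fold and an adjusted p of 0.0440 by that test. The log2 fold change was 1.58 without NSC replicate 1 and 2.19 without NSC Bmi1Over replicate 2. The call did not hold in either of these fits, but each leaves 1 culture in a group, so its p is not given. Over the alternatives that kept all 4 libraries the adjusted p from edgeR or DESeq2 ranged from 4.73e-06 to 0.0489.

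Most of the remaining ligands had few reads or none. Of the 32, 29 were under 1 CPM in every library and 14 had no read in any. Ccl25, the most abundant, had a log2 fold change of 0.06 (SE 0.14), and Ccl28, a mucosal chemokine, one of −0.48, and neither was called. Ccl7, the next per kb, had 6, 2, 7 and 21 reads and was not tested. Of 21 other receptors 2 were tested and none was called by edgeR's test or DESeq2's. An unadjusted p under 0.05 by edgeR was found for 1 of the 2 and for 24.2% of all tested genes. Ackr1, the atypical receptor of red cells and venules, was at 0.443 and 0.316 CPM in NSC. In NSC Bmi1Over replicates 1 and 2 it was at 0.457 and 1.03 CPM, so that replicate 1 lay close to NSC. Its log2 fold change was 1.09 (SE 0.47). Ccr10, the receptor of Ccl28, had one of 0.01, while Cxcr6, with 8, 6, 0 and 4 reads, was not tested. Cxcr2 had 0 reads in all 4 libraries and Cxcr3 had 0, 0, 0 and 1, both named after their values were seen.

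Of 24 genes of chemokine processing and receptor signalling, 17 were tested and 1 was called, with a median log2 fold change of −0.07. The called gene was Mmp2, a matrix metalloproteinase that can cleave Cxcl12, at 0.855 and 0.949 CPM in NSC and at 3.48 and 2.92 CPM in NSC Bmi1Over. It was higher in both libraries labelled NSC Bmi1Over, with a log2 fold change of 1.81 (SE 0.29) or 3.51-fold and an adjusted p of 0.0316 by edgeR's quasi-likelihood test. Without NSC Bmi1Over replicate 2 the log2 fold change was 1.95 and the call did not hold, but that fit leaves 1 culture in a group, so its p is not given. Over the alternatives that kept all 4 libraries the adjusted p from edgeR or DESeq2 ranged from 1.94e-06 to 0.0359. Adam10, which sheds Cx3cl1, was at 279 and 366 CPM in NSC and at 486 and 576 CPM in NSC Bmi1Over, without overlap, but was not called (log2 fold change 0.72, SE 0.19, adjusted p 0.0762 by edgeR's test). It was called by DESeq2, with no filter on low counts and with the replicate number as a block. Some fits with a culture left out also called Adam10, but these leave 1 culture in a group. Gnai2 and Gnb1, subunits of the G proteins that the receptors couple to, had log2 fold changes of −0.21 and −0.19 and were not called.

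Of 14 NF-kB target and inhibitor genes, included because NF-kB drives Ccl2, Cxcl1 and Cx3cl1 in many cells, 11 were tested and none was called by edgeR's test, with an unadjusted p under 0.05 for 3 and 1 call by DESeq2, against 24.2% and 11.2% of all genes. Their median log2 fold change was −0.03. Rela, a subunit of NF-kB, had a log2 fold change of −0.01, and the inhibitor genes Nfkbib and Nfkbia had −0.32 and −0.29. The 3 genes with an unadjusted p under 0.05, named after their values were seen, were the adhesion genes Icam1 (1.86, SE 0.46) and Vcam1 (−0.61, SE 0.15) and the inhibitor gene Tnfaip3 (−1.06, SE 0.42).

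**Figure D4:**
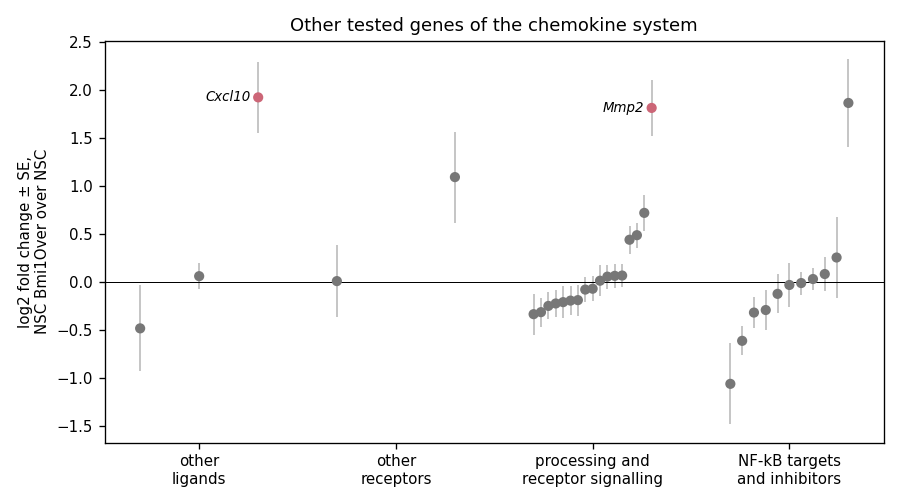
Log2 fold change (± SE), libraries labelled NSC Bmi1Over over NSC, of the tested genes in 4 lists, each ordered by its values. The lists are other chemokine ligands, other chemokine receptors, chemokine processing and receptor signalling, and NF-kB target and inhibitor genes. Red marks the genes called by edgeR's quasi-likelihood test, Cxcl10 at 1.92 and Mmp2 at 1.81, and grey the genes not called.

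H3K27me3, the histone mark laid down by Polycomb repressive complex 2 at silenced genes, was not used to choose the members. As each group has a single peak list, the comparison of peaks has no replicate check. A peak lay within 5 kb of a start site for 2 members in NSC, Cxcl12 and Cxcl14, and for 1 in NSC Bmi1Over, Cxcl14. Of 22028 protein-coding genes 8.83% were marked in this way in NSC and 4.38% in NSC Bmi1Over, and 53.2% of those marked in NSC had no promoter peak in NSC Bmi1Over. Cxcl12 was 1 of 1035 genes marked in NSC alone. The peak lists hold no depth. The methods of the study give read totals that differ between its ChIPSeq libraries. They state that the weakest samples were dropped on read number and quality and that 1 replicate per condition was kept, but do not tie a total to a kept library, so fewer peaks in a list cannot be told apart from a shallower library, at Cxcl12 as elsewhere.

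Cxcl12 carried 3 peaks in NSC. The first, chr6:117168336-117168613 (278 bp), spanned the start site and lay over 249 bp of the sequence printed above, and its fold enrichment was 4.75 at a −log10 q of 4.09. The others, chr6:117169172-117169949 (778 bp) and chr6:117170282-117170679 (398 bp), lay within the gene, with fold enrichments of 4.6 and 3.65. In NSC Bmi1Over no peak was called on Cxcl12, and the nearest was 1029 kb away. Cxcl12 was the member with 4.67 ± 1.55 and 10.4 ± 1.11 CPM in the 2 groups (SD, n = 2), so the library without the peak belongs to the group with the higher RNA level.

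Cxcl14 was marked in both lists. In NSC a peak of 1936 bp, chr13:56294626-56296561, spanned the start site and covered 548 bp of exon, at 5.56-fold enrichment and a −log10 q of 5.97. In NSC Bmi1Over 2 peaks of 200 bp each, chr13:56295164-56295363 and chr13:56295602-56295801, lay inside the span of the NSC peak and away from the start site, with fold enrichments of 4.81 and 4.14. The covered length was shorter while the RNA level overlapped between the groups. At a minimum fold enrichment of 5, only the Cxcl14 peak in NSC was left among the members.

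**Figure D5:**
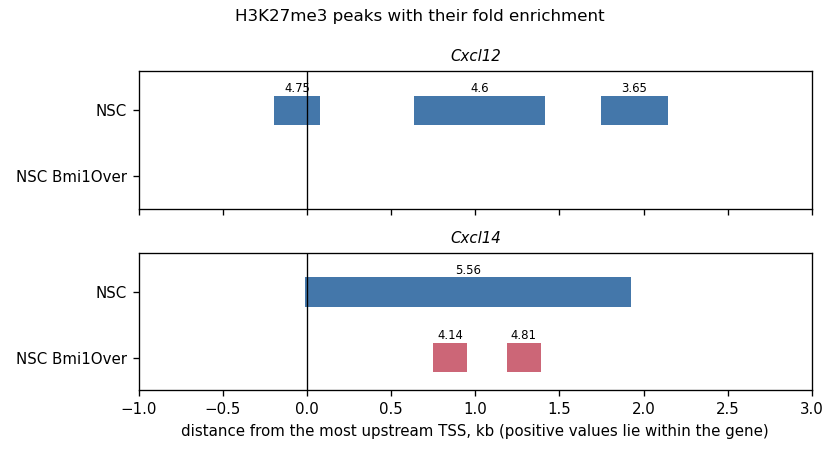
H3K27me3 peaks at Cxcl12 (top) and Cxcl14 (bottom), as bars along the distance from the most upstream start site in kb, with NSC in blue, NSC Bmi1Over in red and the fold enrichment above each bar. Cxcl12 has 3 peaks in NSC and none in NSC Bmi1Over, and Cxcl14 has 1 peak of 1936 bp in NSC and 2 of 200 bp in NSC Bmi1Over.

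The members with the largest relative differences in RNA had no peak nearby in either list. The nearest peak to Pf4 was 1265 kb away in NSC and 1484 kb in NSC Bmi1Over, and that to Ackr4 was 339.9 and 3106 kb away. For Cxcr4 it lay at 15 and 27.73 kb, outside the promoter window. The distances were 118.2 and 345.5 kb for Cx3cl1, 351.8 and 899.5 kb for Ccl2, 23.14 and 141.4 kb for Ackr3, and 1146 and 1366 kb for Cxcl1. Of 31 other chemokine ligands with an annotated promoter none was marked in either list, and of 21 other receptors Ccr9, a receptor of Ccl25, was marked in both.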

How the data were processed

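RNASeq covered 2 cultures of NSC and 2 of NSC Bmi1Over, and ChIPSeq for H3K27me3 covered 1 library per group. Per the submitters' processing notes and the methods of the study, the authors trimmed reads with Trim Galore and aligned them to mm10 (GRCm38), with STAR for RNASeq and Bowtie2 2.3.4 for ChIPSeq. The authors deposited counts of reads per gene, without normalisation, from unstranded and stranded counting. Rows for unmapped, multi-mapped, ambiguous or unassigned reads were kept out of library sizes and tests. They held 27.8 and 30.2% of all reads in NSC and 31.9 and 34.1% in NSC Bmi1Over. Unmapped reads alone were 11.22 and 13.75% in NSC and 16.21 and 17.64% in NSC Bmi1Over, so both shares were higher in both libraries of the latter. In the peak lists, the authors deposited for each MACS2 broad peak a fold enrichment (a ratio to background) with the −log10 p-value and the −log10 q-value. A display score, also deposited, was left aside. Peaks were called per library.

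Of 50686 gene identifiers, 50462 matched GENCODE vM21. Unstranded counts were analysed in R 4.3.3. Genes kept by edgeR's filterByExpr were scaled by TMM and fitted with edgeR 4.0.16 (quasi-likelihood F-test, limma 3.58.1), without a replicate term, and a gene was called when its p, adjusted by Benjamini-Hochberg over all 15521 tested genes, was under 0.05. The biological coefficient of variation was 12.9%. The p-values set the difference between the groups against the spread between these cultures, estimated with information shared over genes. DESeq2 1.42.0 was an alternative, beside other scalings, filters, gene sets and counting, a replicate block and each culture left out. Peaks and promoters were handled in Python 3.11.15. A promoter was marked when a peak overlapped the window within 5 kb of any annotated start by at least 1 bp. The steps were tested on simulated counts.

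The members and all gene lists were chosen with earlier results of these data known. Named are the members, Bmi1, genes whose exons overlap a member, called genes of the lists and, of each list's other genes, the 3 with the highest level per kb, chemokine genes within 500 kb of Pf4, and the 3 genes most like Pf4, Ackr4 and Cxcr4 (at least 1 CPM on average, log2 of CPM + 0.1). Every other gene named, among them markers with 0 reads in all libraries, was chosen after its values were seen. One list gene is not reported here.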

Additional observations from a re-analysis of the deposited data

How the results depend on the processing

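The log2 fold changes of Pf4, Cxcl12, Cx3cl1, Ccl2, Ackr4 and Cxcr4 kept their direction under all 12 alternatives. Of 96 alternative values over the 8 tested members, 88 moved by less than the spread between replicates. The values that changed sign were those of Cxcl14 without NSC Bmi1Over replicate 2 (−0.26) and Ackr3 without NSC replicate 1 (0.39). The widest change at a named member from counting was that of Ackr4, 1.98 against 1.20 with the reads shared with Acad11.

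The number of called genes depended strongly on the setting. It was 334 in the setting reported, 1496 with DESeq2's Wald test, 532 with library size alone (64.9% higher against 94.3%, and a median log2 fold change of all genes of −0.17), 2356 with no filter on low counts (80.3% higher) and 130 to 2013 with each culture left out, the lowest without NSC Bmi1Over replicate 2. Without NSC replicate 2 and without NSC Bmi1Over replicate 1, 82.6% and 81.8% of the calls were higher. Of 22 tested other chemokine system genes 2 were called, against 4 of 22 with DESeq2 and 4 of 54 with no filter. Over all genes DESeq2 called 11.2% of 13414 with an adjusted p, and the fit with no filter 2356 of 28541. The calls gained among the chemokine system genes by DESeq2 and with no filter were Adam10 and Grk3. Among the members, a minimum fold enrichment of 5 left 1 promoter with an H3K27me3 peak in NSC and 0 in NSC Bmi1Over, while the other peak settings gave 2 and 1.

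The replicate numbers are not known to pair the cultures, and with 2 pairs the correlation of their deviations (r = 0.24 over 15521 genes) does not decide it. With the replicate number as a block, 3459 of 15521 tested genes were called (70.3% higher), and 6 of 22 tested other chemokine system genes. Low counts limit Pf4 and Ccl2 in NSC and leave Cxcl1 undescribed, and the peak lists hold no depth. The causes of these dependences were not tested.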
